A study of Mus musculus with 15 samples.

Results

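The genes described here are 10 nuclear genes whose products keep proteins of the mitochondrion folded or remove them: Hspd1, Hspe1, Hspa9, Dnaja3, Trap1, Lonp1, Clpx, Clpp, Yme1l1 and Afg3l2. They were taken by symbol, before any filter, from the 78317 genes of the count tables, and all 10 were among the 20269 genes tested. The rule names them by symbol and uses no measured value, but the members were chosen with earlier results of these data known. Their messenger RNA levels were read from RNA-seq of mouse heart ventricles at embryonic day 11.5 in lines that lose parts of Atf4, the gene of a stress-response transcription factor.

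Most mitochondrial proteins are made in the cytosol, threaded through the inner membrane unfolded and folded inside. In the matrix, mortalin (Hspa9) pulls them in and the chaperonin made of Hspd1 and Hspe1 encloses and folds them, while the proteases Lonp1 and ClpXP degrade those that fail and membrane-bound AAA proteases do so in the inner membrane. The mitochondrial unfolded protein response is a rise of the messenger RNAs of such chaperones and proteases when matrix folding is disturbed. It was described in mammalian cells and worked out in Caenorhabditis elegans, where the transcription factor ATFS-1 carries it. In mammals ATF4, ATF5 and CHOP (Ddit3) act in mitochondrial stress, and ATF4 is best known there for enzymes of proline, serine and folate metabolism. The heart depends heavily on mitochondria, and in the embryonic ventricle their network matures while the wall thickens.

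All embryos were C57BL/6, and all libraries carry the same batch label. The CDS knockouts (4 libraries) came from a line with loxP sites around exons 2 and 3 of Atf4, which keeps the polyadenylation signal, recombined by Xmlc2-Cre, and were set against 4 CDS controls. The PAS knockouts (4 libraries) came from a line with loxP sites around the polyadenylation signal, recombined by the same Cre, and were set against 3 PAS controls. The labels call the controls only that, so it is not given whether they carry the floxed alleles or the Cre. Xmlc2-Cre acts in cardiomyocytes, so the other cells of the ventricle (endocardium, epicardium, mesenchyme and blood) are not targeted. The design text calls the replicates biological. In such bulk tissue, fewer cells of a type and less RNA per cell cannot be told apart.

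The libraries held 30376847 to 46472141 counts in the CDS line and 22623499 to 29315724 in the PAS line, and the members 748 to 37112 counts per library. In CPM (fragments of the gene among those of the library, with library sizes normalised), Atf4 stood at 44.5 ± 3.56 in the 4 CDS knockouts and at 114 ± 1.99 in the 4 CDS controls (SD; log2 change -1.36 ± 0.05 SE, edgeR adjusted p = 1.25e-13). It had 286 ± 18.8 CPM in PAS knockouts (n = 4) and 97.1 ± 4.27 CPM in PAS controls (n = 3; log2 change 1.56 ± 0.06, edgeR adjusted p = 4.25e-14), so the libraries labelled PAS knockout hold more Atf4 message, and their group is named by its label only. The labelled tissue was checked on 8 cardiomyocyte markers (Tnnt2, Myh6, Myh7, Actn2, Actc1, Myl2, Ryr2 and Nkx2-5), which summed to 26971 to 33032 CPM in every library. The labels name cultured cortical neurons in the extraction protocol and ventricle elsewhere. The neuronal markers Tubb3, Snap25, Map2 and Neurod1 summed to 7.38 to 22.9 CPM, with Neurod1 at 0 to 2 counts.

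Promoter windows of 250 bases before to 50 after the start site were matched by symbol for 8 of the 10 members in RefSeq (GRCm38.p6). They are shown for 1 member per motif found among the members, with Pycr1, the proline synthesis enzyme, as a gene of the ATF4 programme. Capitals mark the motif, and each line runs 5′ to 3′ on the gene's own strand. Hspe1 (chr1:55087898-55088197, plus strand) holds paired heat shock units (GAANNTTC and TTCNNGAA, overlapping one another), Trap1 (chr16:4077761-4078060, minus strand) a cyclic AMP response element (TGACGTCA), Clpx (chr9:65294010-65294309, plus strand) the core of the site of NRF1 (GCGCANGC), a factor of mitochondrial gene expression, and Pycr1 (chr11:120643699-120643998, minus strand) a C/EBP-ATF response element (TGATGNAA), the site type that ATF4 binds with a C/EBP partner.
Hspe1: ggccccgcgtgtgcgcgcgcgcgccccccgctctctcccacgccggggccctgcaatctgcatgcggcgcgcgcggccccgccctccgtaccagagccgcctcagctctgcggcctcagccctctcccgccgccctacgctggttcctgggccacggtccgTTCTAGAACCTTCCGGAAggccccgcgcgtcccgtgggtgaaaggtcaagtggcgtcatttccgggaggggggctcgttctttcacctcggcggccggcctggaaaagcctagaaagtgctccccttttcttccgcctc
Trap1: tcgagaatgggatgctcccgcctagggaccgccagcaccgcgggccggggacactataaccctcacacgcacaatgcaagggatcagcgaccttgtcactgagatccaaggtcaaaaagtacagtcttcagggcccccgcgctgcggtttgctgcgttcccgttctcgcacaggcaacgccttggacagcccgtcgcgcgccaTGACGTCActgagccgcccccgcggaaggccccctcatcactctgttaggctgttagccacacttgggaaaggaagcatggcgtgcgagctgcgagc
Clpx: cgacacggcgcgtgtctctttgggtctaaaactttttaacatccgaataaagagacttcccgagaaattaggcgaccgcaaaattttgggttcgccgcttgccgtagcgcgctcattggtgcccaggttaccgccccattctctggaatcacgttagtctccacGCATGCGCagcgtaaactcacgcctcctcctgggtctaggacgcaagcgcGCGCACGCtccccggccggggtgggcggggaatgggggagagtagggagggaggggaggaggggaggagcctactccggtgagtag
Pycr1: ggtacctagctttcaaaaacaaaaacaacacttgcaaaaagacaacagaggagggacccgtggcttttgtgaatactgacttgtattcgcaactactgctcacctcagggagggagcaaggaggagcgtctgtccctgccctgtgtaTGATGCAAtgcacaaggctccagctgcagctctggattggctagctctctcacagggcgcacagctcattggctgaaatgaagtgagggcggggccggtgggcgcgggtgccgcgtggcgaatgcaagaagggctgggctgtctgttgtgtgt

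Both strands of the windows of 8 members (9 windows, Hspd1 having 2 start sites) were searched. A C/EBP-ATF element was in 0 of the 8 members and in 4.51% of the 27025 genes with a RefSeq window. The heat shock units were in 3 members, Hspd1, Hspe1 and Clpp, and in 17.0% of all those genes. The NRF1 core was in 3, Hspd1, Clpx and Dnaja3, and in 11.2% of all, and the cyclic AMP element in Trap1 alone among the 8, 47 bases before the start site, and in 2.03% of all. Lonp1 and Yme1l1 held none of the 4 motifs. Hspd1 and Hspe1 lie head to head, and the second window of Hspd1 shares 285 bases with that of Hspe1 on the opposite strand, so their heat shock units are the same bases read from either side. Among ATF4-driven enzymes with a window, Pycr1 held the C/EBP-ATF element, Aldh18a1 an NRF1 core and Mthfd2 none. A match describes letters in the window only.

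**Figure D1:**
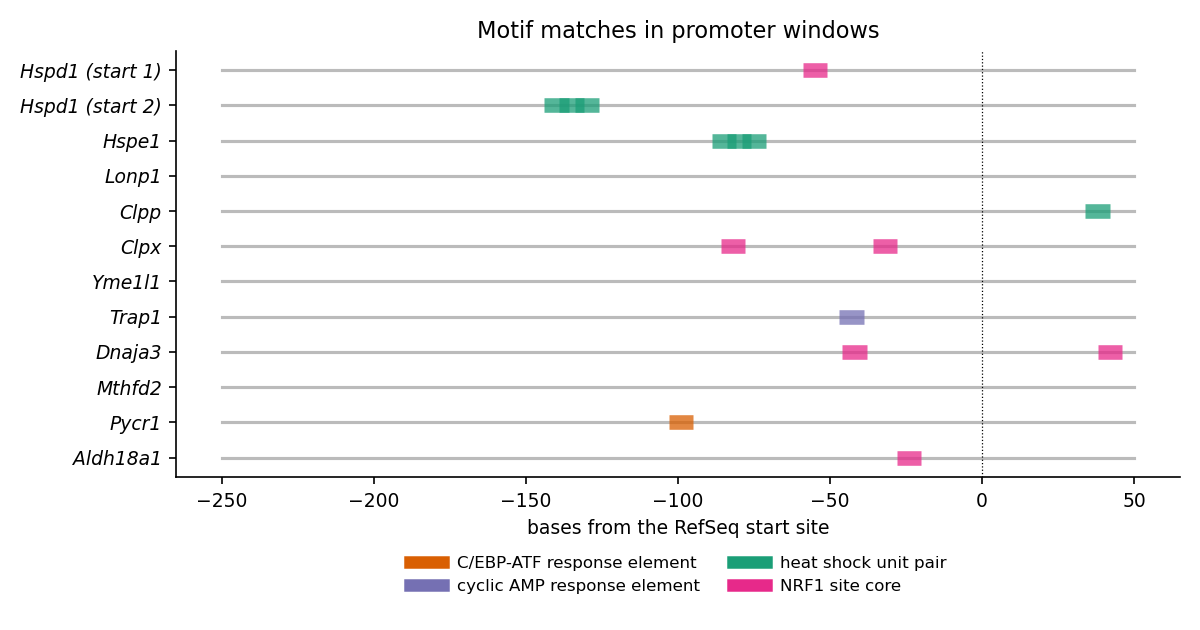
Motif matches in RefSeq promoter windows (GRCm38.p6), plotted by distance in bases from the start site (horizontal) for each member with a window and for 3 enzymes of the ATF4 programme (rows), with colour for the motif. The heat shock units of Hspe1 and of the second Hspd1 start site are the shared ones, and only Pycr1 carries a C/EBP-ATF element among the windows drawn.

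Levels were compared between genes as CPM per kilobase of annotated exon, averaged over all 15 libraries. Hspd1, the ring subunit of the chaperonin, was highest at 295 CPM per kb (274 to 314), followed by Hspa9 at 128, Hspe1, the chaperonin's lid, at 81.5 and Trap1 at 51.8. The proteases stood lower, with Lonp1 at 32.4, Clpp at 29.1, Yme1l1 at 17.4, Afg3l2 at 15.4 and Clpx at 12.2 CPM per kb, and Dnaja3 lay among them at 18.2. Hspd1 was above 99.6% of tested genes and Clpx, the lowest member, above 80.3%. Each gene exceeded the next in the order in 15 of 15 libraries, except Dnaja3, which exceeded Yme1l1 in 10 of 15. Dnaja3 and Yme1l1 therefore do not differ beyond their spread, and the ranges of Lonp1 and Clpp over the libraries also overlapped. The ratio of the highest to the lowest member was 24.3. The exon length counts every annotated exon of a gene (1223 bases for Clpp, 9874 for Afg3l2), so a gene whose long exons are little used is placed too low. The order depends on this length. In CPM not divided by it, Afg3l2 (152), Lonp1 (142) and Yme1l1 (140) lay above Trap1 (133) and Hspe1 (120). Clpp was then the lowest member, at 35.6 CPM.

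**Figure D2:**
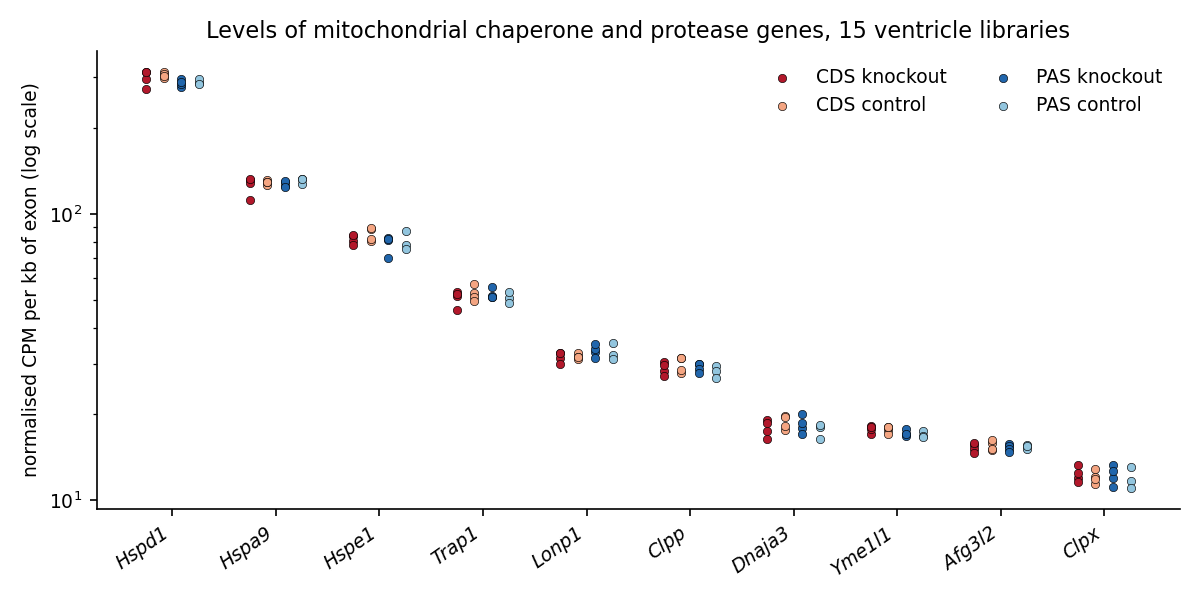
CPM per kilobase of exon (log scale) of each member in every library, in order of mean level, coloured by group. The members run from 295 CPM per kb for Hspd1 to 12.2 for Clpx. Knockouts overlap with the controls of their own line for every gene, while for Hspd1 both PAS groups lie below the CDS controls.

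Each gene varied little across the 15 libraries. The highest library exceeded the lowest by 1.09-fold for Yme1l1 and by 1.28-fold for Hspe1, the ends of the range over the 10 members. The coefficient of variation within groups had a median of 4.74% over the members, from 2.7% for Yme1l1 to 6.78% for Clpx. For the 5860 tested genes of like CPM the median was 4.48%, with 5th and 95th percentiles of 2.47% and 9.66%.

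None of the 10 members was called in either knockout (edgeR's quasi-likelihood test on counts, Benjamini-Hochberg adjusted p under 0.05 over all 20269 genes). The background was 0.0543% of tested genes called in CDS knockouts against CDS controls (11 genes) and 0.00987% in PAS knockouts against PAS controls (2 genes), so 0 of 10 is what the background gives. In the CDS line the 95% intervals of the 10 changes lay between -11.9% and 11%, and in the PAS line between -9.66% and 14.2%. At an unadjusted p under 0.05 the count was 0 of 10 in each line, with lowest p of 0.242 and 0.323 by edgeR, and DESeq2 and limma-voom called 0 of 10 as well. Adjusted p (edgeR) was 0.9998 for every member for CDS and 0.992 to 0.999 for PAS knockouts. The knockout and control libraries overlapped for 10 of 10 members in both lines. Groups without overlap made up 2.8% of tested genes in the CDS line, and 4.59% in the line with PAS deletion.

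The chaperonin was the most abundant pair. Hspd1 (chr1:55116994-55127402 on GRCm39, minus strand) codes for HSP60, the barrel in which matrix proteins fold. Hspd1 had 825, 781, 724 and 830.2 CPM in the CDS knockouts, against 825, 811, 789 and 800.3 CPM in the CDS controls. It had 731, 749, 781 and 766 CPM in the PAS knockouts, against 760.3, 781 and 751 CPM in the PAS controls. CDS knockout 3 was the lowest of the CDS line and CDS knockout 4 the highest, so the controls lay inside the spread of the knockouts. The log2 change of Hspd1 was -0.029 ± 0.042 in CDS knockouts (SE, 95% interval -7.76% to 4.16%), and PAS knockouts differed from their controls by -0.014 ± 0.046 (-7.27% to 5.76%). Hspe1 (chr1:55127291-55130466, plus strand) codes for HSP10, the lid of that barrel. Hspe1 had 124, 118, 115 and 124 CPM in the CDS knockouts, against 131, 132, 118 and 121 CPM in the CDS controls. The PAS knockouts had 122, 103, 119 and 121 CPM, against 115, 128 and 111 CPM in the PAS controls. Controls 1 and 2 of the CDS line were its highest libraries there, and PAS knockout 2 stood below all others. On the log2 scale Hspe1 differed by -0.056 ± 0.054 between CDS knockouts and CDS controls (SE; 95% interval -11% to 3.93%) and by -0.024 ± 0.059 between PAS knockouts and PAS controls (-9.66% to 7.08%). The annotated genes overlap by 112 bases on opposite strands, and counting ignored strand.

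The Hsp70 system of the matrix is Hspa9 with its cochaperones. Hspa9 (chr18:35070467-35087410, minus strand) codes for mortalin, which drives import and early folding. Hspa9 had 567, 552, 482 and 573 CPM in the CDS knockouts, against 568, 545, 556 and 558 CPM in the CDS controls. In PAS knockouts Hspa9 had 538, 559, 561 and 536 CPM, against 572, 546 and 572 CPM in PAS controls. CDS knockout 3 lay well below the other 14 libraries, and the remaining CDS knockouts were mixed with their controls. The log2 change of Hspa9 was -0.035 ± 0.046 in CDS knockouts (SE, 95% interval -8.57% to 4.24%), and PAS knockouts differed from their controls by -0.038 ± 0.049 (-9.28% to 4.55%). Dnaja3 (chr16:4457853-4525559, plus strand), the J-domain protein that stimulates mortalin's ATPase, was the member with the most negative change in the CDS line and the most positive in the PAS line. Dnaja3 had 74.9, 68.1, 64 and 73.1 CPM in the CDS knockouts, against 77.2, 76.3, 68.9 and 71.3 CPM in the CDS controls. The PAS knockouts had 70.1, 78.3, 72.7 and 66.7 CPM, against 70.6, 71.9 and 64 CPM in the PAS controls. In both lines knockout and control libraries interleaved. On the log2 scale Dnaja3 differed by -0.067 ± 0.056 between CDS knockouts and CDS controls (SE; 95% interval -11.9% to 3.44%) and by 0.063 ± 0.062 between PAS knockouts and PAS controls (-4.48% to 14.2%). The PAS change minus the CDS change was 0.13 ± 0.083 (SE), the largest such difference of the 10, with an adjusted p of 0.995 by edgeR.

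Trap1 (chr16:3857835-3895691, minus strand) is the mitochondrial member of the Hsp90 family. Trap1 had 137, 133, 119 and 135 CPM in the CDS knockouts, against 136, 146, 132 and 128 CPM in the CDS controls. It had 132, 143, 133 and 132 CPM in the PAS knockouts, against 131, 125 and 137 CPM in the PAS controls. The highest CDS library was control 2 and the lowest knockout 3, and PAS knockout 2 stood above the other PAS libraries. On the log2 scale Trap1 differed by -0.047 ± 0.049 between CDS knockouts and CDS controls (SE; 95% interval -9.74% to 3.87%) and by 0.044 ± 0.054 between PAS knockouts and PAS controls (-4.52% to 11.4%).

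Among the soluble matrix proteases, Lonp1 (chr17:56921297-56933887, minus strand) degrades oxidised and misfolded matrix proteins and is often used as a readout of mitochondrial stress. Lonp1 had 143, 138, 131 and 143 CPM in the CDS knockouts, against 143, 138, 136 and 139 CPM in the CDS controls. The PAS knockouts had 144, 147, 154 and 137 CPM, against 154, 141 and 136 CPM in the PAS controls. The PAS libraries reached both higher and lower than those of the CDS line outside knockout 3. The log2 change of Lonp1 was -0.0033 ± 0.044 in CDS knockouts (SE, 95% interval -6.31% to 6.25%), and PAS knockouts differed from their controls by 0.018 ± 0.048 (-5.46% to 8.47%). Clpp (chr17:57297305-57303188, plus strand) is the peptidase of the ClpXP complex, and Clpx (chr9:65201542-65237940, plus strand) the ATPase that unfolds substrates for it and also acts in haem synthesis. Clpp had 37.2, 34.5, 33.1 and 36.2 CPM in the CDS knockouts, against 38.4, 38.5, 34.2 and 35 CPM in the CDS controls. It had 36.7, 36.6, 35.3 and 34.2 CPM in the PAS knockouts, against 36.2, 34.7 and 32.8 CPM in the PAS controls. Controls 1 and 2 were the highest CDS libraries for Clpp, and PAS libraries were mixed. On the log2 scale Clpp differed by -0.050 ± 0.052 between CDS knockouts and CDS controls (SE; 95% interval -10.3% to 4.10%) and by 0.045 ± 0.058 between PAS knockouts and PAS controls (-5.10% to 12.2%). Clpx had 41.7, 43.5, 40.5 and 46.3 CPM in the CDS knockouts, against 42.3, 45, 39.9 and 41.5 CPM in the CDS controls. In PAS knockouts Clpx had 41.9, 46.4, 39 and 44.3 CPM, against 41, 38.6 and 45.8 CPM in PAS controls. CDS knockout 4 was the highest of its line for Clpx, and the PAS groups spanned nearly the same range. The log2 change of Clpx was 0.028 ± 0.059 in CDS knockouts (SE, 95% interval -6.34% to 11%), and PAS knockouts differed from their controls by 0.038 ± 0.066 (-6.59% to 12.9%).

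The AAA proteases of the inner membrane face opposite sides: Yme1l1 (chr2:23046381-23089272, plus strand) works towards the intermembrane space and cleaves Opa1, and Afg3l2 (chr18:67537834-67582242, minus strand) works towards the matrix and takes part in ribosome assembly there. Yme1l1 had 137, 142, 145 and 144 CPM in the CDS knockouts, against 141, 136, 145 and 144 CPM in the CDS controls. It had 136, 135, 143 and 137 CPM in the PAS knockouts, against 140.2, 135 and 134 CPM in the PAS controls. All 15 libraries of Yme1l1 lay within a 1.09-fold range. On the log2 scale Yme1l1 differed by 0.0043 ± 0.036 between CDS knockouts and CDS controls (SE; 95% interval -4.75% to 5.61%) and by 0.016 ± 0.039 between PAS knockouts and PAS controls (-4.44% to 7.01%). Afg3l2 had 154, 149, 145 and 157 CPM in the CDS knockouts, against 156, 159.9, 148 and 149 CPM in the CDS controls. The PAS knockouts had 156, 152, 149 and 146 CPM, against 154, 149 and 152 CPM in the PAS controls. The CDS controls held both the highest library and values below CDS knockouts 1 and 4. The log2 change of Afg3l2 was -0.019 ± 0.038 in CDS knockouts (SE, 95% interval -6.54% to 4.24%), and PAS knockouts differed from their controls by -0.0098 ± 0.042 (-6.43% to 5.43%).

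**Figure D3:**
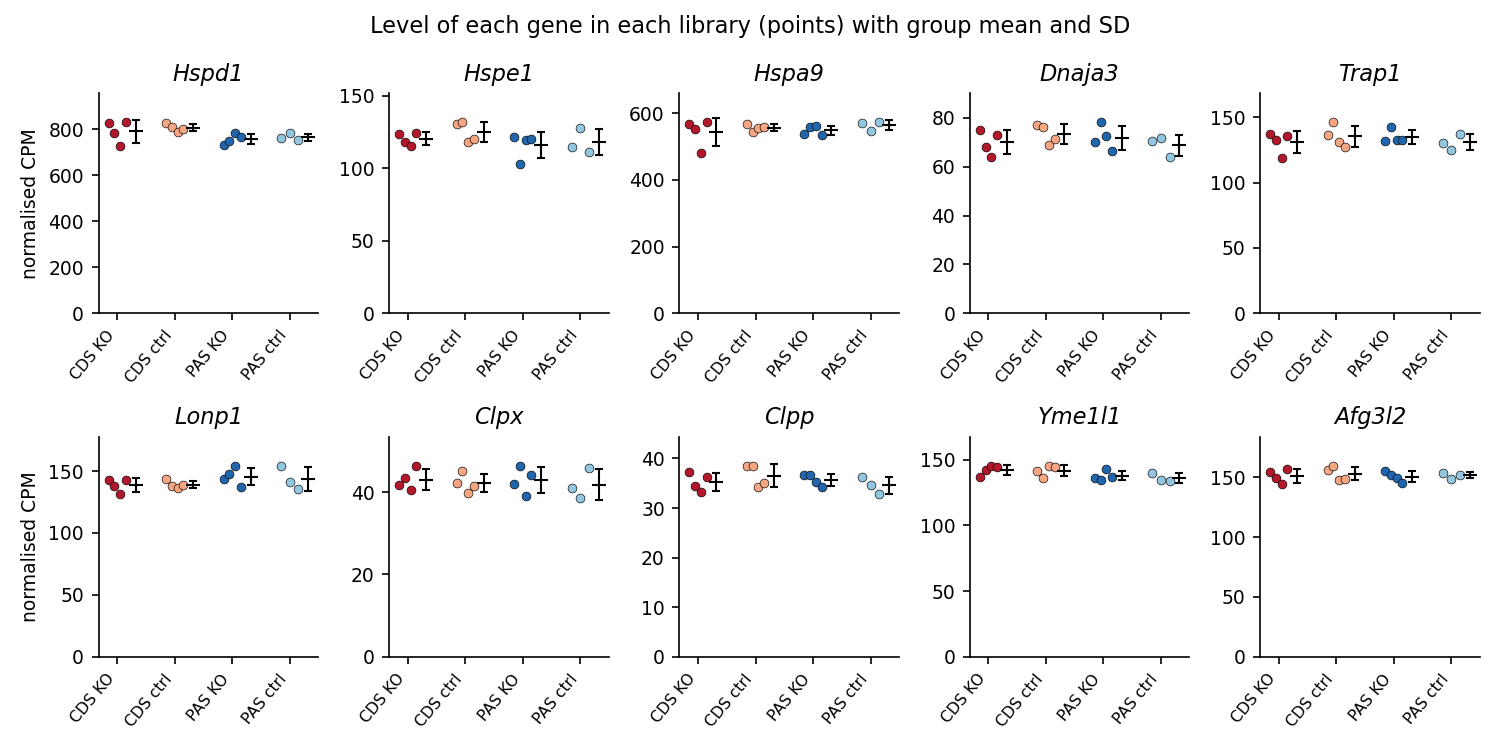
Normalised CPM of each member (1 panel per gene, axis from 0) in each library, with knockouts left of their controls; points are libraries and bars the group mean ± SD. In every panel the knockout and control points overlap, and CDS knockout 3 is the low point of the CDS line for 8 of 10 genes.

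Across the 10 members, 8 changes were negative and 2 positive in the CDS line, with a median log2 change of -0.032 and a range from -0.067 to 0.028, beside a median of -0.0011 over all tested genes. In the PAS line 6 were positive and 4 negative, with a median of 0.017 (all genes -0.0015) and a range from -0.038 to 0.063. Without PAS knockout 3 that median was -0.0036, and without PAS control 1 it was 0.031. With 1 library left out, the members' median in the CDS line ran from -0.055 (without CDS knockout 4) to 0.00062 (without CDS knockout 3). Between libraries of a group, the members' median log2 CPM had an SD of 0.042. CDS knockout 3 was the lowest of its line for 8 of 10 members. There the members summed to 1999 CPM, against 2160 to 2263 CPM in the other 3 CDS knockouts and 2167 to 2259 CPM in the CDS controls. Without CDS knockout 3, Hspd1, Hspa9, Lonp1 and Afg3l2 turned positive at 0.011, 0.019, 0.022 and 0.0028, while Yme1l1 turned negative at -0.0069. The members summed to 2108 to 2188 CPM in the PAS knockouts and to 2136 to 2174 CPM in the PAS controls.

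CDS knockout 3 stood apart in other respects. The gene ENSMUSG00000119584, left without a name by GENCODE M21, took 3.24% of the counts of CDS knockout 3. The other CDS knockouts gave that gene 0.638% to 0.643% of their counts, and the CDS controls 0.216% to 0.387%. In CDS knockout 3 the 8 cardiomyocyte markers summed to 26971 CPM, against 29821 to 31068 CPM in the other CDS knockouts and 30215 to 33032 CPM in the CDS controls. Its 5 erythroid markers had the highest sum of the 15 libraries, 3958 CPM. The other CDS knockouts had 1438 to 2093 CPM of them, and the CDS controls 1635 to 3502 CPM. Its neuronal markers also had the highest sum, 22.9 CPM, against 9.75 to 14.3 CPM in the other CDS knockouts and 7.38 to 14.1 CPM in the CDS controls. All 8 cardiomyocyte markers had a negative change in the CDS line, with a median of -0.11 and 0 called, as had all 6 endothelial and endocardial markers (median -0.11, 0 called). The endothelial and endocardial sums did not set knockout 3 apart. They were 1389, 1453, 1383 and 1461 CPM in the CDS knockouts, against 1500 to 1566 CPM in the CDS controls, without overlap. The 4 cushion mesenchyme markers had positive changes (median 0.18, 0 called), with sums of 2437 to 3015 CPM in CDS knockouts and 2274 to 2789 CPM in CDS controls. Markers of liver and choroid plexus (Ttr, Enpp2, Alb and Afp) summed to 19.96, 26.1, 148 and 220.0 CPM in the CDS knockouts (3 and 4 high), against 17.8 to 51.7 CPM in the CDS controls, with Alb at 0 to 2 counts. The PAS knockouts had 1.48 to 2.27 CPM of them, and the PAS controls 1.70 to 2.14 CPM. Without CDS knockouts 3 and 4 together, a choice made after seeing the data, the median change of the members was -0.0094. In the PAS line the 5 erythroid markers all had negative changes (median -0.57, 0 called), with sums of 1047 to 2084 CPM in PAS knockouts and 1130 to 3165 CPM in PAS controls. The part of these markers in the members' values was not tested.

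The difference of the knockout effects (PAS change minus CDS change) was called for 0 of 10 members by edgeR, with 0 at an unadjusted p under 0.05 and 0 by DESeq2 and limma-voom; 0.00493% of all tested genes were called (1 gene). It was positive for 9 members and negative for 1, with a median of 0.018, a range from -0.0034 to 0.13 and 95% intervals from -11.3% to 23.4%. Without CDS knockout 3 the median difference was 0.0028, and without CDS knockout 4 it was 0.041. Changes that differed between the lines by more than those bounds lie outside the interval of every member.

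The controls of the lines were also set side by side, PAS controls against CDS controls, as a measure of how far the lines differ without the knockout. Here 0.143% of tested genes were called (29 genes) and 0 of 10 members, with 0 members at an unadjusted p under 0.05 by edgeR and 0 called by DESeq2 and limma-voom. The changes were negative for 8 and positive for 2 members, with a median of -0.052 and bounds from -14.1% to 10.7%. That median was -0.027 without CDS control 2 and -0.063 without CDS control 4. Hspd1 was the only member whose groups did not overlap, as in 9.46% of tested genes: the PAS controls had 760.3, 781 and 751 CPM, against 825, 811, 789 and 800.3 CPM in the CDS controls (log2 change -0.077 ± 0.046 SE, edgeR adjusted p = 0.615). Per the file headers, counts of the lines were written to separate folders with the same program version and annotation, and other handling that went with a line cannot be told apart from it.

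The proportions of members that work as partners, and of the AAA proteases of the inner membrane, were measured as the ratio of CPM per kb in each library (exact two-sided permutation tests over libraries, 8 in all, smallest possible p of 0.0286 for 4 against 4 and 0.0571 for 4 against 3 libraries). The chaperonin ratio Hspd1 to Hspe1 was 3.66 ± 0.102 in CDS knockouts and 3.59 ± 0.140 in CDS controls (SD, exact permutation p = 0.6), and 3.65 ± 0.296 in PAS knockouts and 3.62 ± 0.192 in PAS controls (exact permutation p = 0.971). The ratio of Clpx to Clpp was 0.427 ± 0.0246 in CDS knockouts and 0.405 ± 0.0129 in CDS controls, the lowest p of the 8 (exact permutation p = 0.171, adjusted p = 0.952). In the PAS line it was 0.421 ± 0.0324 in knockouts and 0.425 ± 0.0559 in controls. Mortalin to its J-protein, Hspa9 to Dnaja3, stood at 7.04 ± 0.247 in CDS knockouts and 6.90 ± 0.385 in CDS controls, and at 6.94 ± 0.335 in PAS knockouts and 7.45 ± 0.616 in PAS controls. Afg3l2 and Yme1l1 belong to separate proteases and are not partners. The ratio of Afg3l2 to Yme1l1 stood at 0.865 ± 0.0472 in CDS knockouts and 0.879 ± 0.0579 in CDS controls, and at 0.889 ± 0.0382 in PAS knockouts and 0.905 ± 0.0187 in PAS controls. In the CDS line 0 of 4 ratios passed 0.05 by this test, the 4 tests of the PAS line could not have passed it, and over all 15 libraries the chaperonin ratio stayed between 3.35 and 4.05.

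ATF4-driven enzymes of the same organelle were set beside the members in the same libraries. Of 6 such genes (Mthfd2, Shmt2, Aldh1l2, Pycr1, Aldh18a1 and Pck2; a list chosen with earlier results of these data known) all 6 had a negative change in the CDS line, with a median of -0.29, and 1 was called. Aldh1l2, a mitochondrial folate enzyme, fell: it averaged 46.6 ± 4.72 CPM in the 4 CDS knockouts, against 63.8 ± 4.90 CPM in the 4 CDS controls (SD; log2 change -0.45 ± 0.065 SE, edgeR adjusted p = 0.00282). That call was lost when the CDS groups were fitted alone (adjusted p = 0.0963) and without CDS knockouts 3 and 4 (adjusted p = 0.0622), the only 2 of 22 other settings to lose it; over these the adjusted p ran from 1.37e-14 (no filter on low counts) to 0.0963. In the PAS line all 6 changes were negative as well, with a median of -0.16 and 0 called, and Aldh1l2 had -0.15 ± 0.072. Shmt2 and Pck2, named after their values were seen, changed least of the 6 in both lines. Shmt2 had -0.092 ± 0.075 and -0.015 ± 0.083 in the CDS and PAS lines, and Pck2 -0.023 ± 0.041 and -0.020 ± 0.046. Of genes named after their values were seen, Pycr1, which makes proline, had -0.40 ± 0.086 (adjusted p = 0.133) and -0.40 ± 0.096 (adjusted p = 0.599) in the CDS and PAS lines, and Mthfd2, of the folate cycle, -0.31 ± 0.060 (adjusted p = 0.0560) and -0.20 ± 0.068. Aldh18a1, named likewise, had -0.28 ± 0.056 (edgeR adjusted p = 0.0757) and -0.18 ± 0.063 (edgeR adjusted p = 0.934) in the CDS and PAS lines. Pycr1, Mthfd2 and Aldh18a1 were called in the CDS line by DESeq2 (adjusted p = 0.0107, 0.00474 and 0.0107) and without the count filter. Pycr1 and Aldh18a1 were also called there with only the CDS groups fitted (adjusted p = 0.0243 and 0.0124) and without PAS knockout 1 (adjusted p = 0.0353 for both), Aldh18a1 without PAS knockout 2 (adjusted p = 0.0241, edgeR) and Mthfd2 without CDS knockout 2 (adjusted p = 0.0457). In the PAS line Pycr1 was called without the count filter (edgeR adjusted p = 0.0499). The 6 enzymes summed to 242 to 267 CPM in the CDS knockouts, against 294 to 311 CPM in the CDS controls, without overlap, and to 259 to 284 CPM in the PAS knockouts, against 280.4 to 304 CPM in the PAS controls, with overlap. The members' sums overlapped in both lines. Between the controls of the lines (PAS against CDS), 4 of the 6 enzymes had negative changes and 2 positive (median -0.058, 0 called). Aldh1l2 had -0.20 ± 0.071 and Mthfd2 -0.19 ± 0.066 there, each without overlap of the groups, as in 9.46% of tested genes.

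**Figure D4:**
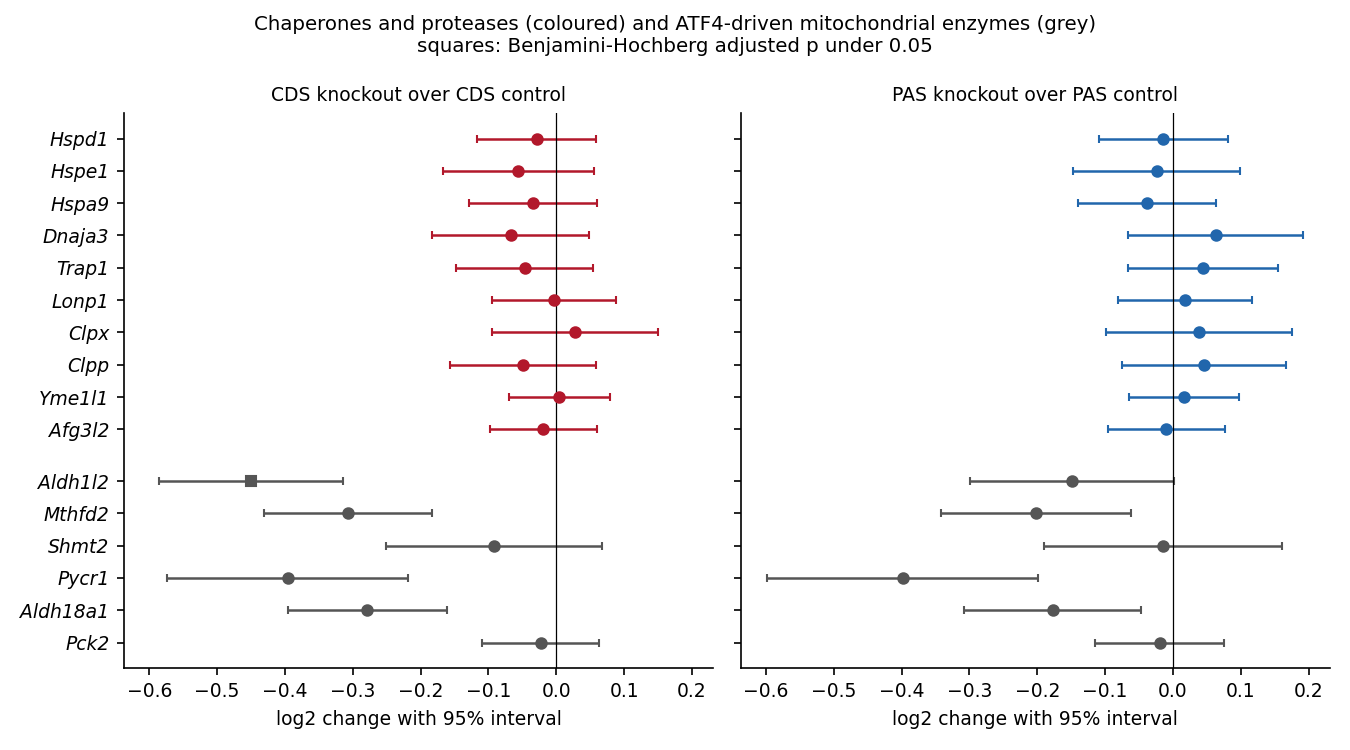
Log2 changes (points) with 95% intervals (lines) in the CDS line and the PAS line, for the 10 members (coloured) and the 6 ATF4-driven mitochondrial enzymes (grey). Squares mark an edgeR adjusted p under 0.05. Every interval of a member includes 0, and Aldh1l2 in the CDS line, at -0.45, is the square.

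Genes that act around the members were counted from lists chosen with earlier results known, and 0 were called in either knockout in each of the following. A list of 11 chaperone cofactors and other mitochondrial genes had 9 negative changes and a median of -0.036 in the CDS line, and 7 negative and -0.0060 in the PAS line. Its most abundant genes, not cofactors of the members, were Prdx3, a matrix peroxidase (-0.018 ± 0.046 and 0.050 ± 0.051 in the CDS and PAS lines), and Ppif, cyclophilin D (-0.083 ± 0.047 and 0.033 ± 0.051). The 14 other mitochondrial proteases had 8 negative changes and a median of -0.011 in the CDS line, and 10 positive and 0.032 in the PAS line. Their most abundant members, Pmpca and Pmpcb, form the peptidase that removes import signals, and had -0.021 ± 0.046 and -0.054 ± 0.059 for CDS knockouts, and 0.099 ± 0.050 and 0.057 ± 0.065 for PAS knockouts. The 6 prohibitin and inner membrane scaffold genes, to which Immt (-0.038 ± 0.045 and 0.028 ± 0.048 in the CDS and PAS lines) and Opa1 (-0.025 ± 0.038 and 0.048 ± 0.041) belong, had medians of -0.042 and -0.011. For the 10 import genes the medians were -0.028 and 0.0033, with Tomm70a, an import receptor, at 0.0031 ± 0.037 and 0.020 ± 0.041 and Tomm20 at -0.033 ± 0.041 and 0.0039 ± 0.045.

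Of 10 regulators and signals of the mitochondrial stress response, 9 were tested and 0 called: 8 of 9 changes were negative in the CDS line (median -0.047) and 7 of 9 in the PAS line (median -0.11). The most abundant were Dele1, which relays mitochondrial stress to the cytosol (-0.016 ± 0.043 and 0.073 ± 0.047 in the CDS and PAS lines), and Chchd10 (-0.053 ± 0.050 and -0.0094 ± 0.056). Fgf21, a hormone that cells under mitochondrial stress release, had 0 to 3 counts per library and was not tested. Atf5, named after its values were seen, had 20.01, 18.9, 16.8 and 18.9 CPM in PAS knockouts, against 22.2, 23.0 and 24.2 CPM in PAS controls. These groups did not overlap, as in 4.59% of tested genes, but the change of -0.31 ± 0.076 missed the threshold (edgeR adjusted p = 0.657). Ddit3, named likewise, also had PAS groups without overlap, with a change of -0.28 ± 0.093 (edgeR adjusted p = 0.934).

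Cytosolic chaperones, the relatives of the members outside the mitochondrion, had 0 of 11 called in either line, with medians of -0.018 for CDS and -0.0087 for PAS knockouts. Hsp90ab1, their most abundant gene, had -0.053 ± 0.044 with the CDS and -0.0087 ± 0.047 with the PAS deletion, and Hspa8 0.024 ± 0.053 and -0.039 ± 0.057. Among 11 genes of mitochondrial mass and biogenesis 0 were called, 9 changes were negative in the CDS line (median -0.0068) and 8 positive in the PAS line (median 0.033). Cs, citrate synthase, a usual marker of mitochondrial mass, had -0.038 ± 0.043 and 0.10 ± 0.046 (adjusted p = 0.934) in the CDS and PAS lines, and the pore gene Vdac1 -0.0062 ± 0.040 and 0.028 ± 0.043.

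The genes most like Hspd1 and Lonp1 across the 15 libraries were sought by Pearson's r of log2 CPM among 8038 genes of at least 20 CPM, as a description over libraries that share lines and depths. For Hspd1 they were Cyc1 (r = 0.874), Tmem147 (0.861), Atp5g1 (0.857), Idh3a (0.854) and Suclg1 (0.839). Cyc1 and Atp5g1 code for parts of the respiratory chain and ATP synthase, and Idh3a and Suclg1 for enzymes of the citric acid cycle. For Lonp1 they were Pdk1 (r = 0.903), Pkm (0.901), Pgk1 (0.891), Xrcc6 (0.889) and Tpi1 (0.883), of which Pkm, Pgk1 and Tpi1 code for glycolytic enzymes and Pdk1 for a kinase that restrains pyruvate dehydrogenase.

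Processed copies could take reads of some members. The 5 pseudogenes named after Hspd1 together held counts equal to 0.252% of those of Hspd1, the 6 of Hspe1 0.119% and Hspa9-ps1 0.0149% of those of their parents. Copies under other names were not searched. How reads that fit both a parent and a copy were counted was not examined, so these shares do not measure what the parents lost.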

How the data were processed

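RNA-seq counts of 15 mouse ventricle libraries were used. The deposited values are raw counts of fragments per gene, which the authors made with featureCounts 2.1.1 over GENCODE vM37 exons (GRCm39) with no strand option, per the file headers. The exon length in the same files is in bases. The submitters' processing notes also list HISAT2 2.2.1 and STAR 2.7.11b, and which of them aligned these reads is not given in the sources used here. The labels conflict on RNA extraction and on poly(A) selection against ribosomal RNA depletion.

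Names came from GENCODE M21 by identifier (51487 of 78317). edgeR 4.0.16 in R 4.3.3 kept 20269 genes (filterByExpr, minimum count 10), scaled them by trimmed mean of M values and fitted 1 mean per group over all 15 libraries by quasi-likelihood (robust, 11 residual degrees of freedom), tested on simulated data. SEs were taken from the F statistic. Over 21 replicate pairs chi-square per degree of freedom was 3.45 to 64.0, so none was merged. The pairs with CDS knockout 3 had 64.0, 55.4 and 50.8, and the highest of the other pairs, PAS controls 2 and 3, had 13.9. Levels are normalised CPM. Alternatives were other size factors, no filter, DESeq2 1.42.0, limma-voom (limma 3.58.1), only the groups compared, a replicate block and leaving out libraries.

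The members and all gene lists were chosen with earlier results of these data known. The rule for named genes took all 10 members and, from each list, up to 4 called genes or else the 2 most abundant, and the 5 genes with the highest correlation to Hspd1 and to Lonp1.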

Additional observations from a re-analysis of the deposited data

Results flagged for a closer look

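Over 30 groups of 4 libraries (10 members in the CDS knockouts, the CDS controls and the PAS knockouts), 2 had a library far from the other 3 by Dixon's ratio. Chance flags about 1 in 20 such groups. Both are values of PAS knockout 2: Hspe1 stood at 103 CPM as the lowest of the PAS knockouts, against 119 to 122 CPM in the other 3, and Trap1 stood at 142.6 CPM as the highest, against 132 to 133 CPM. The PAS controls, with 3 libraries, were not examined in this way.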

How the results depend on the processing

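No member was called under any setting: over 880 fits of the 10 members in 4 contrasts the lowest adjusted p was 0.439 (Hspe1, PAS controls against CDS controls without PAS control 2). Of the members, Clpp, Trap1 and Dnaja3 kept their sign in all 4 contrasts when any 1 library was left out, and the other 7 turned in at least 1 contrast. Counts of called genes moved. In the CDS line 11 became 31 without the count filter and 20 by DESeq2; in the PAS line 2 became 7 without the filter, 7 by DESeq2 and 1 with only the groups compared; for the difference 1 became 3 without the filter, 2 by DESeq2 and 2 by limma-voom; and for PAS against CDS controls 29 became 201 without the filter, 102 by DESeq2 and 10 with only the groups compared. The ratio of the highest to the lowest member was 24.3 per kb, with Clpx lowest, and 21.9 without dividing by length, with Clpp lowest. Without CDS knockouts 3 and 4 (chosen after seeing the data) signs turned in the CDS line for Hspa9 (0.0078), Lonp1 (0.012), Yme1l1 (-0.024), Pmpca (0.028), Dele1 (0.014) and Vdac1 (0.0040). Without the count filter Hspa9 turned to 0.00087 for the difference and to -0.0019 for the controls. The causes were not tested.

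Leaving out each library in turn gave 10 to 14 calls in the CDS line, 2 to 3 in the PAS line, 1 to 2 (without CDS knockout 4) for the difference and 15 (without PAS control 1) to 43 (without CDS control 4) for the controls. Signs turned as follows, given as the range of log2 changes. In the CDS line: Afg3l2 -0.035 to 0.0039, Clpx -0.0067 to 0.062, Cs -0.062 to 0.00095, Dele1 -0.048 to 0.011, Hspa8 -0.0099 to 0.079, Hspa9 -0.059 to 0.019, Hspd1 -0.051 to 0.011, Lonp1 -0.017 to 0.022, Pmpca -0.049 to 0.014, Prdx3 -0.053 to 0.014, Tomm70a -0.019 to 0.031, Vdac1 -0.034 to 0.016 and Yme1l1 -0.012 to 0.023. In the PAS line: Afg3l2 -0.026 to 0.0061, Chchd10 -0.056 to 0.035, Clpx -0.014 to 0.11, Hsp90ab1 -0.049 to 0.043, Hspd1 -0.030 to 0.0024, Hspe1 -0.064 to 0.038, Immt -0.0068 to 0.054, Lonp1 -0.021 to 0.074, Ppif -0.0054 to 0.063, Shmt2 -0.090 to 0.084, Tomm20 -0.027 to 0.045 and Yme1l1 -0.0016 to 0.039. For the difference: Afg3l2 -0.015 to 0.025, Clpx -0.041 to 0.082, Hspa9 -0.058 to 0.020, Hspd1 -0.026 to 0.037, Hspe1 -0.0072 to 0.095, Lonp1 -0.017 to 0.078 and Yme1l1 -0.0067 to 0.035. For the controls: Afg3l2 -0.031 to 0.010, Clpx -0.083 to 0.039 and Lonp1 -0.0082 to 0.086.

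Same-numbered samples did not deviate together (correlations -0.20 to 0.064 over 7 pairs, 0 best with their own number). No pairing by number was seen, and 7 pairs are too few to exclude one. With the replicate block 12, 2, 1 and 23 genes were called in the CDS line, the PAS line, the difference and the controls, the members' medians were -0.033, 0.015, 0.020 and -0.052, and signs turned for Tomm20 in the PAS line (-0.0052) and for Clpx in the difference (-0.0080) and the controls (0.0047). The SEs of the members, 0.036 to 0.066 in the knockout contrasts, set the limit of what could be seen.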

Other observations

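Afg3l2 has a close relative, Afg3l1, which is a pseudogene in humans and a working subunit of the matrix-facing protease in mice. Afg3l1 averaged 81.1 CPM over the 15 libraries, and its log2 change was 0.0054 ± 0.040 for CDS and -0.0034 ± 0.044 for PAS knockouts (SE; 0 of 2 called by edgeR). Spg7, paraplegin, the other partner of Afg3l2, averaged 87.8 CPM, with -0.041 ± 0.046 and 0.036 ± 0.051 in the CDS and PAS lines. Oma1, the stress-activated protease that cuts Opa1 and Dele1, averaged 16.2 CPM, with -0.060 ± 0.064 and 0.096 ± 0.073. These genes were picked after their values were seen. The mitochondrial stress hormone Gdf15 averaged 0.524 CPM.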
